A study of Mus musculus with 6 samples.

Results

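The genes described here encode the proteasome of mouse, its activators and the factors that assemble it. They were taken as the protein-coding records whose symbol starts with Psma, Psmb, Psmc, Psmd, Psme, Psmf or Psmg followed by a digit, which gave 50 genes of 51912 gene records. The cells were bone marrow mononuclear cells (BMMNC), a marrow fraction that holds leukocytes with some progenitors and stromal cells. The cells were of a genotype that the labels spell "WIDETYPE", read here as wild type. They were kept for 10 days either on hHVS (n = 3 libraries) or on PCL (n = 3 libraries), seeded at one density. PCL usually stands for polycaprolactone, a synthetic polyester. What hHVS stands for is not spelled out in the labels, which give no age, sex or strain. They state neither that libraries came from separate cultures nor that they came from separate animals, so the p-values measure the spread between these samples only, which may be technical.

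The 26S proteasome is the cell's main machine for breaking down proteins tagged with ubiquitin. Its core is a barrel of stacked rings: outer alpha rings gate the entry, and inner beta rings carry the catalytic sites. A regulatory cap, made of an ATPase ring, further base subunits and a lid, binds ubiquitin chains, removes them and threads the substrate into the barrel. Interferon induces 3 alternative catalytic subunits that form the immunoproteasome, which is prominent in immune cells and shapes the peptides shown on MHC class I. Other activators can dock on the barrel in place of the cap, and dedicated chaperones build core and cap.

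The deposited count table held 72.1 to 83.6 M units per library, about 18.0 to 20.9 M sequenced fragments at roughly 4 units each. Levels are given below as TMM-adjusted CPM (counts scaled to the library size) when libraries are compared, and as the deposited FPKM, which is per length, when genes are compared. The leading cell signature was that of macrophages: Csf1r had a mean of 2064 CPM in hHVS libraries, against 2165 CPM in PCL libraries, and Cd68 had a mean of 2224 CPM in hHVS libraries, against 2132 CPM in PCL libraries. Summed T cell markers (Cd3e, Cd3d, Trac, Cd2) stayed at or below 0.322 CPM and summed B cell markers at or below 0.614 CPM in every library, and the progenitor marker Kit averaged 0.0747 CPM on hHVS and 0.385 CPM on PCL. Summed progenitor markers (Kit, Cd34, Ly6a) were 8.30, 7.34 and 7.08 CPM in the hHVS libraries and 11.8, 9.94 and 18.4 CPM in the PCL libraries, where Cd34 made up most and lay wholly lower on hHVS (5.18 ± 0.802 CPM on hHVS and 8.90 ± 3.37 CPM on PCL, SD, n = 3 each). The 4 T cell markers Cd3e, Cd3d, Trac and Cd2 failed the filter on low counts. Summed stromal markers (Col1a1, Col1a2, Col3a1, Dcn, Lum, Pdgfrb) were 48.9, 8.79 and 40.4 CPM in the hHVS libraries and 139.7, 37.0 and 35.6 CPM in the PCL libraries. Col1a1 and Col1a2 made up most of these sums. All 5 tested stromal markers were estimated lower on hHVS, with 0 called in edgeR. Dcn (mean 0.512 CPM on hHVS and 1.98 CPM on PCL), Col3a1 and Lum lay wholly lower on hHVS. Summed macrophage markers (Csf1r, Cd68, Adgre1, Lyz2, Itgam) ranged from 18850 to 20165 CPM on hHVS and from 14462 to 16854 CPM on PCL, mostly Lyz2. The part of these marker lists in the proteasome values was not tested.

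Promoter sequence is a feature of the members outside their RNA levels. RefSeq windows on GRCm38.p6, from 250 bases before to 50 after each start, were found for 42 of the 50 genes (45 windows). 4 short motifs were searched on both strands, each on its own, so that matches of different motifs could overlap. The ETS core CCGGAAG, the letters recognised by the ETS family of transcription factors, was in 16 member windows (35.6%), against 8.86% of all 32851 windows. The core of the antioxidant response element, TGACNNNGC, which the proteasome regulator NRF1 (gene Nfe2l1) is known to bind, was in 6 member windows (13.3%), against 12.4% of all windows. The core of the interferon-stimulated response element was in 5 member windows (11.1%), against 3.44%. Those windows belong to Psmb3, Psmd4, Psmd9, Psme1 and Psmg4. No immunoproteasome subunit was among them, but some members had no window to search. The Psmb9 window, at chr17:34187281-34187580, lay inside the annotated gene, which runs to 34187764 on the minus strand. CCAAT was in 15 member windows (33.3%), against 37.4%. No motif was in most member windows. The only background was all windows, so promoters of broadly expressed genes were not compared apart. A match describes letters, not a bound site.

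The antioxidant response element core is shown for the catalytic subunits Psmb5 and Psmb6 and the ATPase Psmc6, because those 3 genes stand for the machine's cutting and unfolding steps. Each sequence runs 5′ to 3′ on the gene's strand, with the motif in capitals. The Psmb5 window lies at chr14:54618008-54618068 on the minus strand, the Psmb6 window at chr11:70525322-70525356 on the plus strand and the Psmc6 window at chr14:45329574-45329631 on the plus strand, where the motif reads on the opposite strand.
Psmb5: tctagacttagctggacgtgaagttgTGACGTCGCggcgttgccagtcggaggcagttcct
Psmb6: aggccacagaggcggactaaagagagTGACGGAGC
Psmc6: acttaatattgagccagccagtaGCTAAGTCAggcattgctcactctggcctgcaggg

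The ETS core is shown for genes of different roles, because it was the motif whose share differed most from that of all promoters. The genes are an ATPase (Psmc6), a base scaffold (Psmd2), a lid subunit (Psmd11), an activator (Psme3) and an assembly chaperone (Psmg1). In Psmd2 and Psmd11 the capitals read CTTCCGG, the same letters on the opposite strand. The windows lie at chr14:45329698-45329756 (plus strand) for Psmc6, chr16:20651600-20651651 (plus strand) for Psmd2, chr11:80428578-80428614 (plus strand) for Psmd11, chr11:101316080-101316138 (plus strand) for Psme3 and chr16:95990997-95991055 (minus strand) for Psmg1.
Psmc6: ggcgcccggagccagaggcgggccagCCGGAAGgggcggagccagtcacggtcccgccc
Psmd2: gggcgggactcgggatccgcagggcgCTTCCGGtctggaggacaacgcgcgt
Psmd11: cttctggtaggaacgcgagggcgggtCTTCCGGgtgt
Psme3: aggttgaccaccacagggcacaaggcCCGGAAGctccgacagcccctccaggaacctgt
Psmg1: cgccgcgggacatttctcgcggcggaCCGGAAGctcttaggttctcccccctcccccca

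Across the 50 genes no difference between hHVS and PCL passed the test. Of the 49 genes with enough counts to test, 0 passed a Benjamini-Hochberg adjusted p of 0.05 in edgeR's quasi-likelihood test, where 141 of 16364 genes (0.862%) passed in all, 0.562% higher and 0.299% lower on hHVS. At an unadjusted p under 0.05, 3 members stood (6.12%), against 13.1% of all genes tested. These were Psma7, Psmb10 and Psmd7, all with negative estimates, where 6.14% of all genes had a negative and 6.99% a positive estimate at that p. DESeq2 called 0 members, against 4.69% of all genes, and limma-voom called 0, against 0.776%. Each of these tools also had 3 members at an unadjusted p under 0.05, against 14.3% and 13.8% of all genes in turn. In bulk RNA, fewer cells of a type and less RNA per cell cannot be told apart.

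The estimates were small and their intervals narrow. Log2 fold changes (hHVS minus PCL) of the 49 members ran from -0.28 to 0.20, with a median of -0.11, beside -0.01 for all genes tested. Of the members, 35 had a negative and 14 a positive value. Scaled to library totals, 41 were negative and the median was -0.19, beside -0.09 for all genes. The 95% interval lay within 2-fold in either direction for 48 members (98.0%), beside 95.6% of all genes with at least 10 CPM, and within 1.5-fold for 45 members (91.8%), beside 82.2%. The exception to the wide bound was Psmc3ip, which matches the naming rule but encodes a cofactor of meiotic recombination. It had 1.501, 2.68 and 2.86 CPM on hHVS and 2.21, 2.28 and 3.92 CPM on PCL, and Mlx, on the opposite strand, overlaps 21.2% of its exon bases.

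**Figure D1:**
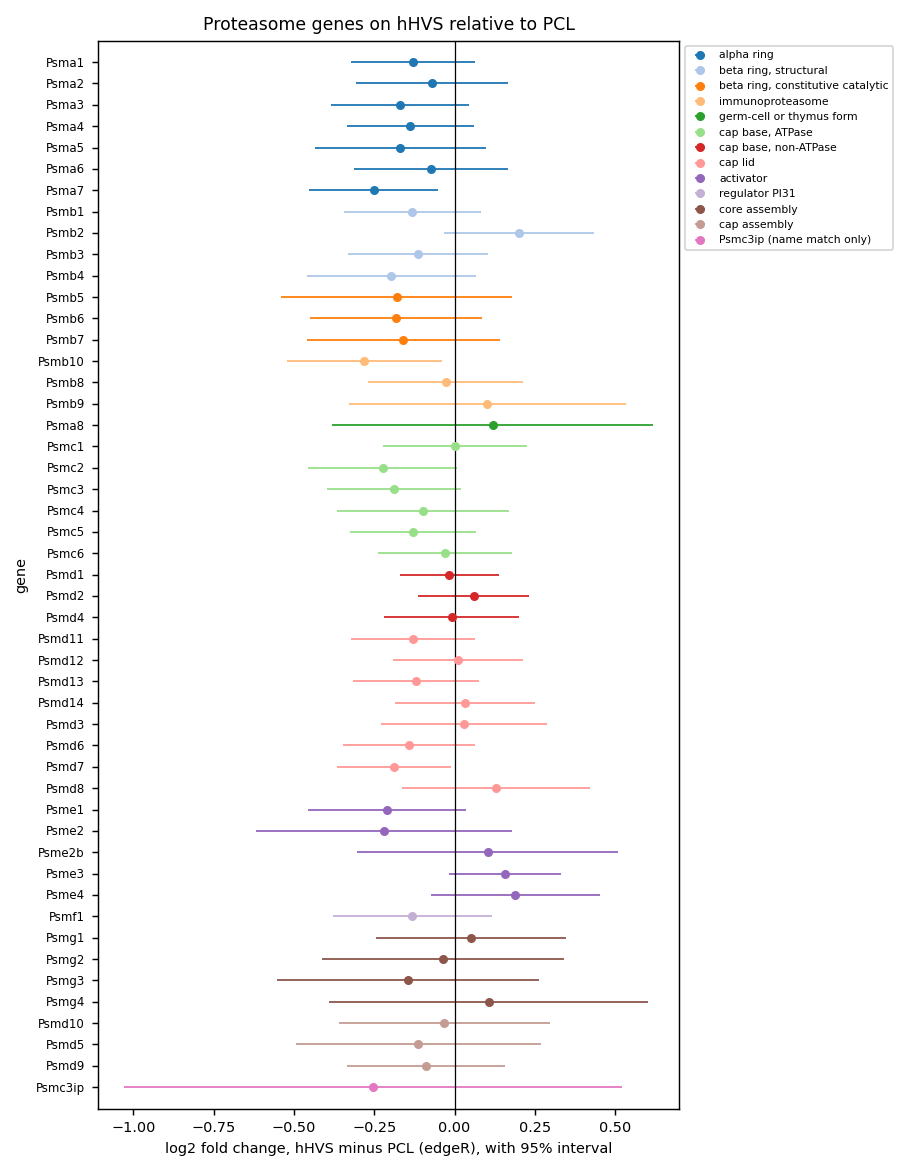
Log2 fold change of each of the 49 tested genes, hHVS minus PCL, as the edgeR estimate (point) with its 95% interval (line), coloured by role (legend). Estimates lie between -0.28 and 0.20, and the interval of Psmc3ip is the widest.

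A single library, PCL replicate 3, stood apart for these genes, and it stood apart over all genes tested as well. Chi-square per gene between it and PCL replicates 1 and 2 was 25.3 and 27.4. Between the other PCL libraries the value was 13.9, and between hHVS libraries it ran from 9.69 to 13.9. PCL replicate 3 was the highest of the 6 libraries for 38 of the 49 members, against 24.4% of all genes tested. It was the lowest for 1 member, against 23.8%. It lay above both other PCL libraries for 41 members, against 6095 of the 16364 genes tested. On the log2 scale its members lay a median of 0.22 above the other PCL libraries, beside 0.01 for all genes. Measured from each gene's mean over the 6 libraries, the members' median was -0.03, 0.01 and -0.09 in hHVS replicates 1, 2 and 3 and -0.09, 0.00 and 0.21 in PCL replicates 1, 2 and 3. The other PCL libraries lay inside the hHVS range of this median, and PCL replicate 3 lay above it. The exact permutation test cannot give a p below 0.1 with 3 libraries against 3.

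Without PCL replicate 3 the median of the members was 0.02, with 26 positive and 23 negative values, and 0 members were called. With that library left out, 4 genes had an unadjusted p under 0.05 in edgeR, against 13.9% of all genes: Psma7, Psmb2, Psmd8 and Psmg4. Gene length moved with the same library. Genes with at least 10 CPM were split into 3 equal bins by the length that the deposited FPKM implies. The shortest bin lay a median of 0.13 log2 higher in PCL replicate 3 than in the other PCL libraries. The middle bin lay at -0.01 and the longest at -0.15. Of the 44 members with at least 10 CPM, 30 were in the shortest bin, with a median of 0.22. The middle bin held 8, with 0.23, and the longest 6, with 0.10. The part of length in the members' values was not tested.

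**Figure D2:**
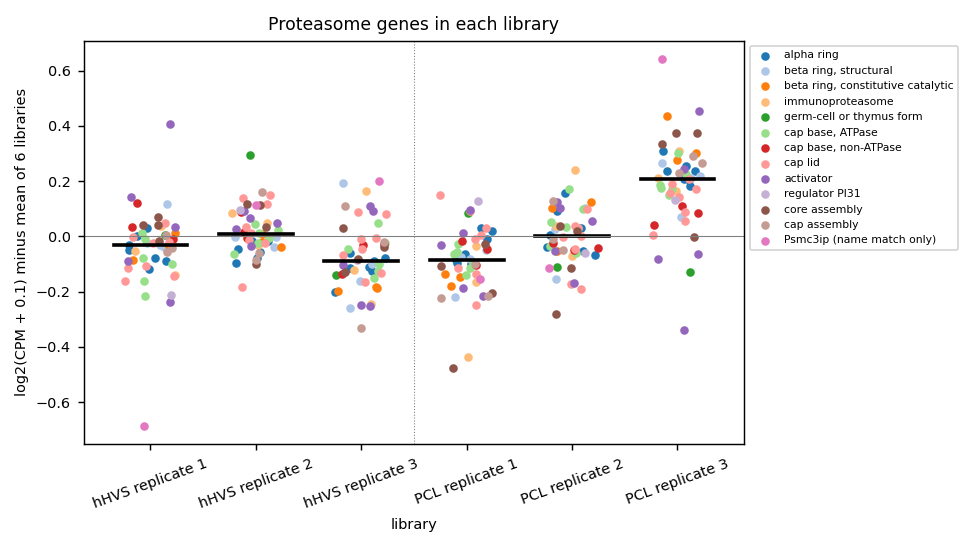
Each point is one of the 49 tested genes in one library, as log2(CPM + 0.1) minus that gene's mean over the 6 libraries, with hHVS libraries left of the dotted line and PCL libraries right of it. Black bars are medians, and PCL replicate 3 has the highest, at 0.21.

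The constitutive core, 14 subunits, gave 13 negative values and 1 positive one, with a median log2 fold change of -0.15. Their summed level was 1029, 1035 and 964 CPM on hHVS and 995, 1069.8 and 1252 CPM on PCL. The hHVS sums sat near those of PCL replicates 1 and 2, and PCL replicate 3 stood above all the others. Without that library the core gave 10 negative and 4 positive values, with a median of -0.05.

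Psma7 (chr2:180036374-180042433 on GRCm38, GENCODE M21) had the most negative estimate of the alpha ring. It had 63.3, 66.0 and 59.7 CPM on hHVS and 70.2, 73.1 and 81.8 CPM on PCL. Every hHVS library was below every PCL library. Its log2 fold change was -0.25 (SE 0.09), with an edgeR adjusted p of 0.271, and -0.18 without PCL replicate 3.

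Psma1 and Psma4, the other alpha subunits whose groups did not overlap, had hHVS below PCL as well. Psma1 had 107, 107 and 104 CPM on hHVS and 112, 108 and 128 CPM on PCL, and Psma4 had 60.3, 63.2 and 59.1 CPM on hHVS and 63.4, 64.0 and 73.5 CPM on PCL. The gap between the nearest libraries was small for both. Of all 49 tested members, 6 lay wholly lower on hHVS (9.89% of all genes) and 1 wholly higher (10.7% of all genes), where 20.6% of all genes had groups that did not overlap in either direction.

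The other alpha subunits Psma2, Psma3, Psma5 and Psma6 had negative estimates from -0.17 to -0.07 with overlapping groups. Psma3 had 47.6, 47.3 and 48.5 CPM on hHVS and 47.4, 56.5 and 57.4 CPM on PCL. Its words of 50 bases are shared to 15.4% with the processed pseudogene Gm13835, which was itself counted at 25.1 to 28.2 CPM on hHVS and 24.8 to 35.6 CPM on PCL, so the split of reads between them is uncertain. Psma5 shares 49.96% of its words with other records, mainly Gm8394.

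Among the structural beta subunits, Psmb2 was the only core gene with a positive estimate. It had 66.7, 61.4 and 70.4 CPM on hHVS and 52.9, 55.3 and 64.5 CPM on PCL. The highest PCL library lay inside the hHVS range. For Psmb2 the log2 fold change was 0.20 (SE 0.10), with an edgeR adjusted p of 0.444, and 0.29 without PCL replicate 3. Psmb1, Psmb3 and Psmb4 had estimates of -0.13, -0.12 and -0.20. PCL replicate 3 was the highest library for each of them, and without it they were -0.06, -0.03 and -0.11.

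The catalytic subunits come in pairs, in which an immunoproteasome subunit can replace its constitutive counterpart during assembly. Psmb5, the chymotrypsin-like subunit, had 91.6, 92.4 and 82.5 CPM on hHVS and 84.6, 90.4 and 126.9 CPM on PCL. Psmb5 was far higher in PCL replicate 3 than in the others, and without it the log2 fold change of -0.18 (SE 0.15) became 0.02. Psmb5 also shares 46.8% of its words with the processed pseudogene Gm3375, counted at 1.35 to 3.45 CPM across the libraries.

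Psmb6, the caspase-like subunit, and Psmb7, the trypsin-like one, were likewise highest in PCL replicate 3. Psmb6 had 114, 122 and 107 CPM on hHVS and 110.3, 132 and 147 CPM on PCL, and Psmb7 had 69.0, 66.7 and 59.7 CPM on hHVS and 60.4, 73.5 and 84.4 CPM on PCL. Both groups overlapped. Their log2 fold changes were -0.18 (SE 0.11) for Psmb6 and -0.16 (SE 0.13) for Psmb7, and without PCL replicate 3 they were -0.09 for Psmb6 and -0.04 for Psmb7.

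The immunoproteasome subunits gave 2 negative values and 1 positive one, with a median of -0.03. Psmb10 (chr8:105935735-105938444), the counterpart of Psmb7, had 33.6, 36.3 and 31.3 CPM on hHVS and 36.2, 43.8 and 43.0 CPM on PCL. The lowest PCL library was just under the highest hHVS library, though on the FPKM scale the groups did not overlap. Psmb10's log2 fold change was -0.28 (SE 0.10), the most negative among the members, with an edgeR adjusted p of 0.303.

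Psmb8 (chr17:34197721-34201454) and Psmb9 (chr17:34181987-34187764) lie close together in the MHC region, next to Tap1. Psmb8, the counterpart of Psmb5, had 63.2, 63.7 and 56.6 CPM on hHVS and 54.9, 63.2 and 69.0 CPM on PCL. Psmb9, the counterpart of Psmb6, had 16.7, 18.3 and 19.4 CPM on hHVS and 12.8, 16.5 and 21.5 CPM on PCL. Both ranges of hHVS lay within those of PCL. Their log2 fold changes were -0.03 (SE 0.10) for Psmb8 and 0.10 (SE 0.18) for Psmb9. Exon overlap with genes on the other strand (Gm20496 for 14.7% of Psmb8, Tap1 for 5.79% of Psmb9) leaves their reads uncertain unless counting used the strand.

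Ratios within a pair, on the FPKM scale, remove what both subunits share in a library. Psmb8 over Psmb5 was 0.220, 0.219 and 0.218 on hHVS and 0.206, 0.222 and 0.173 on PCL. Psmb9 over Psmb6 was 0.0746, 0.0769 and 0.0931 on hHVS and 0.0591, 0.0638 and 0.0748 on PCL. Psmb10 over Psmb7 was 0.976, 1.09 and 1.05 on hHVS and 1.20, 1.20 and 1.02 on PCL. All 3 ratios overlapped between the groups. That of Psmb9 did so only between the lowest hHVS library and PCL replicate 3. For Psmb10, PCL replicate 3 alone of the PCL libraries lay inside the hHVS range. The log2 of the hHVS mean over the PCL mean was 0.13 for Psmb8, 0.31 for Psmb9 and -0.13 for Psmb10. For Psmb8 it was 0.03 without PCL replicate 3 and 0.21 without PCL replicate 2. For Psmb9 it was 0.20 without hHVS replicate 3, and for Psmb10 it was -0.21 without PCL replicate 3.

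**Figure D3:**
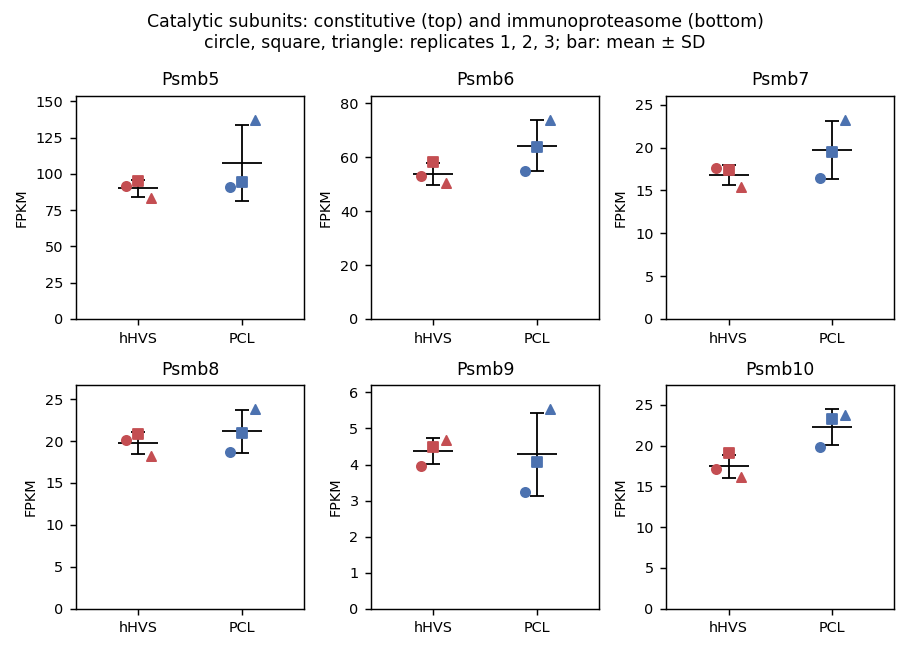
FPKM of the constitutive catalytic subunits (top row) and their immunoproteasome counterparts (bottom row) in hHVS libraries (red, left) and PCL libraries (blue, right), with the mean and SD (n = 3 each). The groups overlap in each panel except that of Psmb10, where hHVS stays at or below 19.0 and PCL at or above 19.8 FPKM. On TMM-adjusted CPM the Psmb10 groups overlap. The median log2 fold change of all genes tested was -0.07 with limma on log2(FPKM + 0.1), beside -0.01 in edgeR.

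The cap, 17 subunits, gave 11 negative values and 6 positive ones, with a median log2 fold change of -0.03. Its summed level was 1649.7, 1715 and 1646 CPM on hHVS and 1605, 1655 and 1850.4 CPM on PCL. Both sets of sums overlapped. Without PCL replicate 3 the cap gave 8 negative and 9 positive values, with a median of 0.02.

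The ATPases, which form the ring that unfolds substrates, gave 5 negative values and 1 positive one, and PCL replicate 3 was the highest library for all 6. Psmc2 had 75.3, 80.5 and 78.5 CPM on hHVS and 82.5, 87.4 and 104 CPM on PCL. The hHVS libraries lay wholly below the PCL libraries. Its log2 fold change was -0.22 (SE 0.10), with an edgeR adjusted p of 0.392, and -0.12 without PCL replicate 3. Psmc1, the highest ATPase by FPKM, had 114, 118 and 112 CPM on hHVS and 104, 109 and 129.98 CPM on PCL, and its estimate of 0.00 (SE 0.10) turned to -0.08 under library totals.

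The large base scaffold Psmd2 had 268, 246 and 242 CPM on hHVS and 229, 243 and 253 CPM on PCL. The groups overlapped and the log2 fold change was 0.06 (SE 0.07), turning to -0.02 under library totals. The companion scaffold Psmd1 and the ubiquitin receptor Psmd4 had estimates of -0.02 and -0.01.

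In the lid, which removes ubiquitin, the 8 subunits gave 4 negative and 4 positive values. Psmd7 (chr8:107580381-107588464), the partner of the deubiquitinase Psmd14, had 70.1, 74.9 and 67.3 CPM on hHVS and 77.0, 80.9 and 84.2 CPM on PCL. Every hHVS library was below every PCL library. For Psmd7 the log2 fold change was -0.19 (SE 0.08), with an edgeR adjusted p of 0.352. Psmd14 itself had 55.1, 61.6 and 53.4 CPM on hHVS and 50.9, 55.9 and 59.5 CPM on PCL, with a log2 fold change of 0.03.

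Psmd11, a lid scaffold subunit, was a member in which PCL replicate 3 was the lowest of the PCL libraries. It had 70.7, 62.4 and 70.4 CPM on hHVS and 78.6, 72.8 and 71.2 CPM on PCL. The groups did not overlap, by a narrow margin. The log2 fold change was -0.13 (SE 0.08), with an edgeR adjusted p of 0.558.

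Psmd8 was the lid gene with the largest positive estimate. It had 204, 229 and 218 CPM on hHVS and 174, 183 and 239 CPM on PCL, where replicate 3 lay above every hHVS library. Psmd8 had a log2 fold change of 0.13 (SE 0.13) that became 0.28 without PCL replicate 3.

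The 5 activators gave 3 positive and 2 negative values, with a median of 0.10, and PCL replicate 3 was the highest library for 2 of 5. Their summed level was 354, 353 and 339.4 CPM on hHVS and 339.2, 331 and 329 CPM on PCL. The lowest hHVS sum lay just above the highest PCL sum, but on the FPKM scale the sums overlapped, at 113.8, 112.9 and 103 on hHVS and 109.7, 112.4 and 121 on PCL.

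Psme1 and Psme2, which together form the interferon-inducible 11S cap, were the 2 with negative estimates, and they neighbour each other on chromosome 14 (chr14:55578123-55581529 and chr14:55587441-55591113). Psme1 had 54.1, 58.6 and 48.4 CPM on hHVS and 56.3, 61.9 and 68.2 CPM on PCL, and Psme2 had 27.2, 33.2 and 29.9 CPM on hHVS and 27.6, 33.3 and 44.0 CPM on PCL. Both groups overlapped. The log2 fold changes were -0.21 (SE 0.11) for Psme1 and -0.22 (SE 0.17) for Psme2, and without PCL replicate 3 they were -0.14 for Psme1 and -0.02 for Psme2. Their FPKM ratio, Psme2 over Psme1, was 0.628, 0.707 and 0.772 on hHVS and 0.613, 0.674 and 0.807 on PCL.

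Psme2b, a close copy of Psme2, had 32.8, 24.2 and 20.8 CPM on hHVS and 21.7, 27.0 and 23.7 CPM on PCL. It shares 68.7% of its words with Psme2, and Psme2 shares 28.3% with it, so the reads of the pair may have been split between them.

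Psme3 (chr11:101316213-101323537), the nuclear activator of the same family, had 104, 109 and 109.9 CPM on hHVS and 103, 90.7 and 96.3 CPM on PCL. All hHVS libraries lay above the PCL libraries, the nearest ones by little, and on the FPKM scale the groups overlapped. The log2 fold change was 0.16 (SE 0.07), with an edgeR adjusted p of 0.427, and 0.15 without PCL replicate 3.

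Psme4, the large single-chain activator PA200, had 135, 128 and 130.4 CPM on hHVS and 131, 118 and 96.8 CPM on PCL. It was the one tested member whose lowest library was PCL replicate 3. The log2 fold change was 0.19 (SE 0.11), with an edgeR adjusted p of 0.524, and 0.08 without that library. The inhibitory regulator Psmf1 had 25.3, 31.3 and 27.5 CPM on hHVS and 32.0, 28.1 and 32.0 CPM on PCL, and its log2 fold change was -0.13 (SE 0.11).

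**Figure D4:**
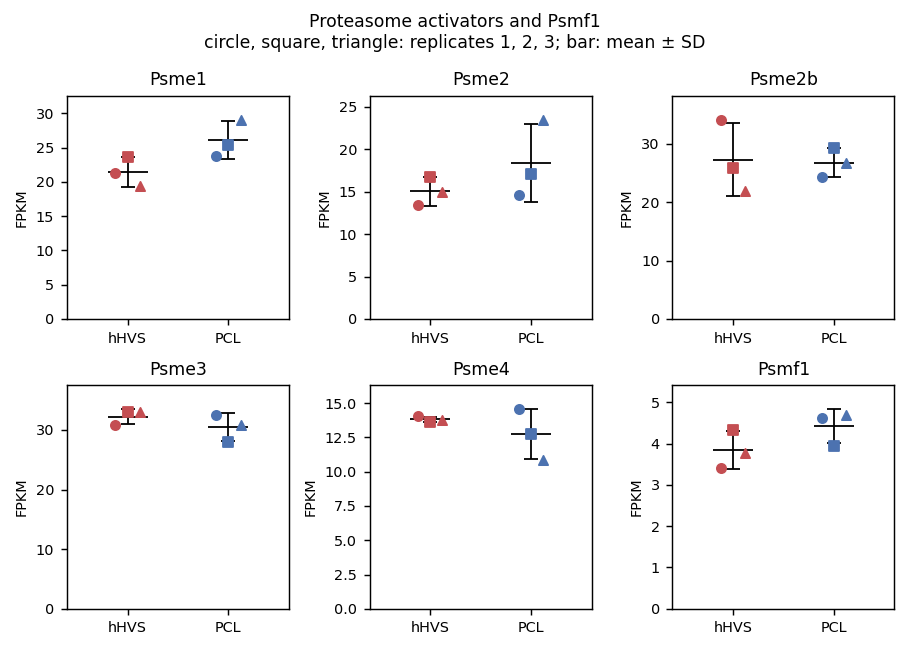
FPKM of the activators Psme1, Psme2, Psme2b, Psme3 and Psme4 and of the regulator Psmf1 in hHVS libraries (red, left) and PCL libraries (blue, right), with the mean and SD (n = 3 each). PCL replicate 3 (blue triangle) is the highest library for Psme1 and Psme2 and the lowest for Psme4.

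The 7 assembly chaperones had mean levels from 2.19 to 14.4 FPKM over the 6 libraries. In edgeR 0 of them were called, against 0.862% of all genes tested. At an unadjusted p under 0.05 there were 0, against 13.1%. The core chaperones Psmg1 to Psmg4 had estimates of 0.05, -0.04, -0.15 and 0.11, and the cap chaperones Psmd5, Psmd9 and Psmd10 had -0.11, -0.09 and -0.03. Psmg4 had 9.17, 9.48 and 8.91 CPM on hHVS and 6.24, 8.05 and 11.3 CPM on PCL. Its hHVS values lay close together inside the wide PCL range, and its log2 fold change was 0.36 without PCL replicate 3. Psmd9 overlaps the record Gm26745 on the other strand across 25.5% of its exons. Gm26745 was listed at 0 in every library.

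Members known from other tissues were low. Psma8, the alpha subunit of the testis proteasome, had 1.89, 2.33 and 1.698 CPM on hHVS and 2.001, 1.74 and 1.71 CPM on PCL, with a log2 fold change of 0.12 (SE 0.21). Psmb11, the catalytic subunit of the thymus proteasome, had 0 in all hHVS libraries and in PCL replicates 2 and 3, and 0.0523 CPM in PCL replicate 1. It was not tested. A count of 0 allows up to 0.0505 CPM over the hHVS libraries, and covers counting error only.

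In level per length the members spread widely. Psmb5 led, with 90.1 ± 5.72 FPKM on hHVS and 107 ± 26.1 FPKM on PCL (SD, n = 3 each). Psmb1 followed, at 76.0 ± 4.61 on hHVS and 87.6 ± 9.31 FPKM on PCL, and then Psmd8, Psmb6, Psma6, Psmd2 and Psmc1. Each of these overlapped its neighbour in the order over the 6 libraries. Breaks in the order, where no library of one gene reached any library of the next, occurred only between Psmd11 and Psmd5, between Psmf1 and Psmd9 and between Psma8 and Psmb11.

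The catalytic subunits sat far apart on this scale. Psmb5, Psmb6 and Psmb7 averaged 98.8, 59.1 and 18.3 FPKM over the 6 libraries, while the immunoproteasome subunits Psmb8, Psmb10 and Psmb9 averaged 20.4, 19.9 and 4.33 FPKM. Among the activators the order ran from Psme3 (31.3 FPKM) and Psme2b (27.0 FPKM) through Psme1 (23.8 FPKM) and Psme2 (16.7 FPKM) to Psme4 (13.3 FPKM), and neighbours overlapped. The length behind an FPKM value, read from the ratio of count to FPKM, was close to the summed length of all annotated exons for most members, but not for all. It came to 1144 bases for Psmb1, where GENCODE M21 has 4595 exon bases, and to 1728 bases for Psmc6, where it has 3498. Psmg2, Psma8, Psmb8 and Psmd6 were also divided by less than their exon bases. The places of these genes in the order, among them that of Psmb1 next to Psmb5, depend on the length the authors used.

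**Figure D5:**
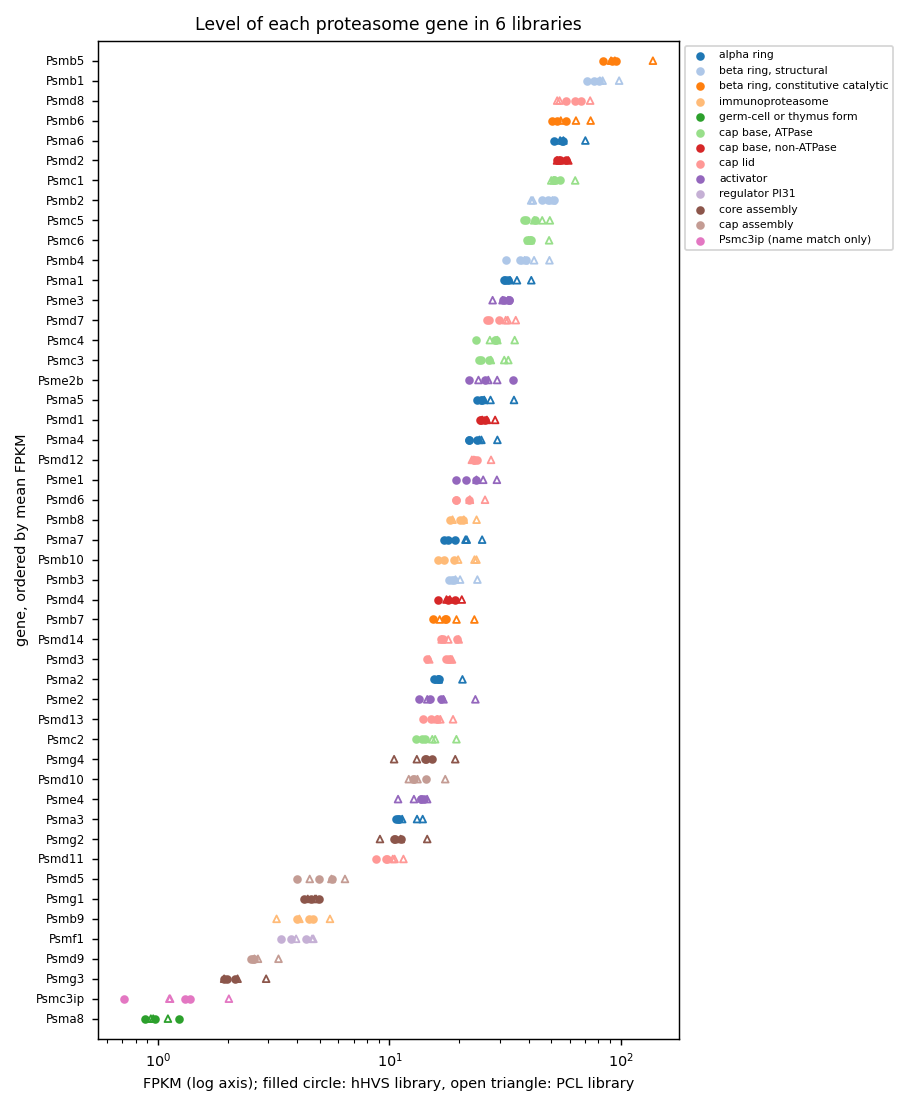
FPKM (log axis) of the 49 genes with a mean above 0.5 FPKM, in order of their mean over the 6 libraries, with filled circles for hHVS libraries and open triangles for PCL libraries. Levels run from about 99 FPKM for Psmb5 to about 1 FPKM for Psma8.

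Of 11 other proteasome-bound and assembly genes, 3 had positive and 8 negative values, with a median of -0.06. In edgeR 0 were called and 1 (9.09%) had an unadjusted p under 0.05, against 13.1% of all genes tested. That gene was Zfand2a, which helps the proteasome handle damaged proteins under stress. It had 113, 113 and 115 CPM on hHVS and 134, 141 and 139 CPM on PCL, with no overlap and a log2 fold change of -0.28 (SE 0.06, edgeR adjusted p = 0.116). Pomp, the core maturation chaperone, had 74.1, 72.5 and 61.3 CPM on hHVS and 62.5, 82.3 and 90.5 CPM on PCL, with a log2 fold change of -0.18.

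Nfe2l1, the transcription factor that raises proteasome genes when activity is short, had 88.8, 67.3 and 75.8 CPM on hHVS and 66.6, 62.6 and 74.7 CPM on PCL. The groups overlapped, with a log2 fold change of 0.19 (SE 0.12). Over 9 genes of that regulation, 0 were called in edgeR and the median was -0.02. Of these 9, 1 (11.1%) had an unadjusted p under 0.05 (Mafk, -0.27), against 13.1% of all genes tested. Of 14 tested genes for ubiquitin supply and delivery, 0 were called and 3 (21.4%) had an unadjusted p under 0.05, against 13.1% of all genes tested. The median log2 fold change of that list was 0.03. Rad23b and Ubqln1, which carry ubiquitinated proteins to the proteasome, lay wholly higher on hHVS, with log2 fold changes of 0.22 (edgeR adjusted p = 0.274) and 0.20 (edgeR adjusted p = 0.362). The gene farthest from 0 in the list, Rps27a, which encodes a ubiquitin fusion, had 53.4, 55.0 and 61.7 CPM on hHVS and 83.8, 60.0 and 94.0 CPM on PCL, with a log2 fold change of -0.48 (SE 0.16, edgeR adjusted p = 0.263).

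Antigen processing and interferon genes, the setting of the immunoproteasome, gave 13 positive and 7 negative values among 20 tested, with a median of 0.07. In edgeR 0 were called and 4 (20%) had an unadjusted p under 0.05, against 13.1% of all genes tested. Nlrc5, Erap1 and Cxcl10 were among those 4. Cxcl10 was low, at 0.848 to 1.58 CPM on hHVS and 0.103 to 0.497 CPM on PCL. Nlrc5, the activator of MHC class I genes, had 31.6, 26.3 and 30.6 CPM on hHVS and 23.2, 22.7 and 20.7 CPM on PCL. The groups did not overlap, and the log2 fold change was 0.41 (SE 0.10, edgeR adjusted p = 0.151). Irf1, which induces the immunoproteasome genes, had a log2 fold change of 0.16, the peptide transporter gene Tap1 -0.02 and the MHC light chain gene B2m 0.06, and all 3 overlapped between groups. Ifng was listed at 0 in every library.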

How the data were processed

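The authors deposited estimated counts and, in another file, FPKM, each for 51912 gene records. Per the submitters' processing notes, FastQC, MultiQC, STAR and featureCounts were used with mm10. Versions, strand use in counting and which tool made which file were not given in the sources used here. That count table was assumed to hold raw counts when tests were chosen. The value 4, however, filled 6544 cells, against 2701 cells with 3 and 1483 with 5. The values 1 and 2 filled 6904 and 3737 cells. The whole numbers were therefore treated as estimated counts of about 4 units per fragment and used as deposited. With counts divided by 4, edgeR called 165 of 13535 genes tested and 0 members. Per the labels' protocols, libraries were made with a stranded polyA kit.

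Genes passed filterByExpr (minimum count 10), which left 16364 of 26793 genes with any count. hHVS was set against PCL with TMM factors (0.959 to 1.05) and edgeR 4.0.16 (R 4.3.3), by its quasi-likelihood test on a model of group alone, and Benjamini-Hochberg adjustment over all genes at 0.05. The biological coefficient of variation was 24.0%. Alternatives were DESeq2 1.42.0 and limma-voom (limma 3.58.1) on the counts, and limma on log2 FPKM with a pseudocount of 0.1 or 1. The fit was tested on simulated data. The libraries were distinct (chi-square per gene within groups at least 9.69). Floors of 3 fragments cover counting error only.

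The members and lists were chosen with earlier results of these data known. Psmb5 to Psmb10, Psme1 to Psme4 and Psmf1 were always named. Per role, the highest and lowest level, the largest change, untested genes and unadjusted p under 0.05 added names. For each list the called genes were named, otherwise the largest change at 10 CPM or more, with Pomp, Nfe2l1, Irf1, Tap1 and B2m in any case. A further result under this rule is not reported here. Other members are named after their values were seen. Promoters and coordinates came from RefSeq (GRCm38.p6), and overlaps and words of 50 bases from GENCODE M21, matched for 99.6% of records.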

Additional observations from a re-analysis of the deposited data

How the results depend on the processing

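In every setting tried 0 proteasome genes passed the threshold. Genes called over the whole table numbered 141 with edgeR, 767 with DESeq2, 76 with no filter on low counts, 84 with limma on log2(FPKM + 0.1) and 36 with the replicate block, and from 32 to 154 when each library was left out in turn. The cause of these shifts was not tested. Whether replicate numbers pair the samples is not known. Deviations of same-numbered libraries correlated at 0.12, -0.01 and -0.06, and those of differently numbered ones at -0.16 to 0.15. With 3 libraries per group these values cannot decide it. In edgeR 3 members (6.12%) had an unadjusted p under 0.05, against 13.1% of all genes. With library totals 11 members did (22.4%), against 15.6% of all genes. Without PCL replicate 1 the count was 13 (26.5%), against 15.1%. With the replicate block it was 1 (2.04%), against 11.2%. Without hHVS replicate 1 it was 0, against 9.69%, and without hHVS replicate 3 it was 0, against 8.87%. With limma on FPKM 10 members (20.4%) did on either scale. The shares of all genes were 15.5% on log2(FPKM + 0.1) and 15.7% on log2(FPKM + 1).

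The members' median of -0.11 was -0.11 with the replicate block and ranged from -0.148 to 0.0215 when each library was left out, positive only without PCL replicate 3. Of 465 values of 31 named members under 15 settings, 24 had the opposite sign, 6 of them with no library left out. Those 6 were Psmc1, at -0.0810 with library totals and -0.0637 and -0.0627 with limma on log2(FPKM + 0.1) and log2(FPKM + 1), and Psmd2, at -0.0228, -0.0126 and -0.0124 in the same order. The others were near 0 or variable, and leaving out a library gave ranges of -0.127 to 0.0336 for Psma6, -0.0176 to 0.217 for Psma8, -0.291 to 0.0215 for Psmb5, -0.113 to 0.0505 for Psmb8, -0.0656 to 0.312 for Psmb9, -0.0654 to 0.104 for Psmc1, -0.421 to 0.0666 for Psmc3ip, -0.14 to 0.12 for Psmd10, -0.0549 to 0.0545 for Psmd4, -0.241 to 0.0137 for Psmd5, -0.157 to 0.0125 for Psmd9, -0.273 to 0.0283 for Psmg3 and -0.0769 to 0.364 for Psmg4. The cause was not tested. Leaving out a library moved the log2 ratio of Psmb8 to Psmb5 between 0.0306 and 0.207, that of Psmb9 to Psmb6 between 0.201 and 0.408 and that of Psmb10 to Psmb7 between -0.206 and -0.0894. Depth and spread left 95% intervals within 1.5-fold for 45 of the 49 members.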
